A study of Mus musculus with 6 samples.

Results

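The genes described here are 35 genes of protein folding in the endoplasmic reticulum (ER) and of the unfolded protein response, taken by symbol from the 34745 genes of the deposited expression table. They comprise 10 stress sensors and transcription factors, 11 chaperones and co-chaperones, 4 disulfide isomerases, 7 genes of ER-associated degradation and 3 genes of the translocon. Trib3, a pseudokinase gene, is counted with the sensors and transcription factors. RNA was sequenced from the prostates of male C57BL/6 mice that were 6 to 8 weeks old when the experiment began. In the T + E2 group (3 mice) a slow-release pellet of testosterone and estradiol, in a ratio of 10 to 1, lay under the skin for 12 weeks and was renewed every month. In the CON group (3 mice) the skin was opened and closed again, so that the control mice carried no pellet at all. Each library came from 1 mouse, and the labels give the tissue as prostate without naming a lobe. The comparison asked which genes responded in the prostate to the combined hormone treatment.

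The ER is where secreted and membrane proteins enter the secretory pathway, receive their first sugars and disulfide bonds, and fold with the help of chaperones. When unfolded proteins accumulate there, the membrane sensors IRE1 (encoded by Ern1 and Ern2), PERK (Eif2ak3) and ATF6 activate the transcription factors XBP1, ATF4 and the cleaved form of ATF6. These factors raise chaperones, isomerases and degradation genes, while PERK also slows protein synthesis and, through ATF4, induces CHOP (Ddit3) and Trib3. The prostate is a secretory gland, so that its luminal cells depend on this machinery. Splicing of Xbp1, cleavage of ATF6 and phosphorylation of PERK are not seen in counts per gene, and only transcript abundance was compared.

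Most of the genes that rose in the T + E2 group were folding genes, and all of those that fell were signalling genes. Of the 35 genes, 34 had enough counts to be tested, 11 of these rose in the T + E2 group and 5 fell (edgeR quasi-likelihood test, adjusted p under 0.05). Over all 15580 tested genes, 10.4% rose and 9.25% fell by the same rule. Of the 11 genes that rose, 9 were among the 15 chaperones and disulfide isomerases, and the other two were the sensor gene Ern1 and the translocon gene Ssr1. All 5 genes that fell were in the group of sensors and transcription factors: Eif2ak3, Atf4, Ddit3, Trib3 and Creb3l4. None of the 7 degradation genes passed the test in either direction. With the study's further limit of an absolute log2 fold change over 1, 4 of the genes were upregulated DEGs (Pdia4, Sdf2l1, Calr and Hsp90b1), against 4.27% of all tested genes, and Trib3 was the single downregulated DEG, against 3.38%. The median log2 fold change of the 34 genes was 0.23, beside -0.002 for all tested genes, and it fell to 0.04 without CON replicate 1. The 3 T + E2 mice lay above the 3 CON mice in 15 of the 34 genes and below them in 5, where 20.0% and 20.7% of all tested genes were separated in this way.

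**Figure D1:**
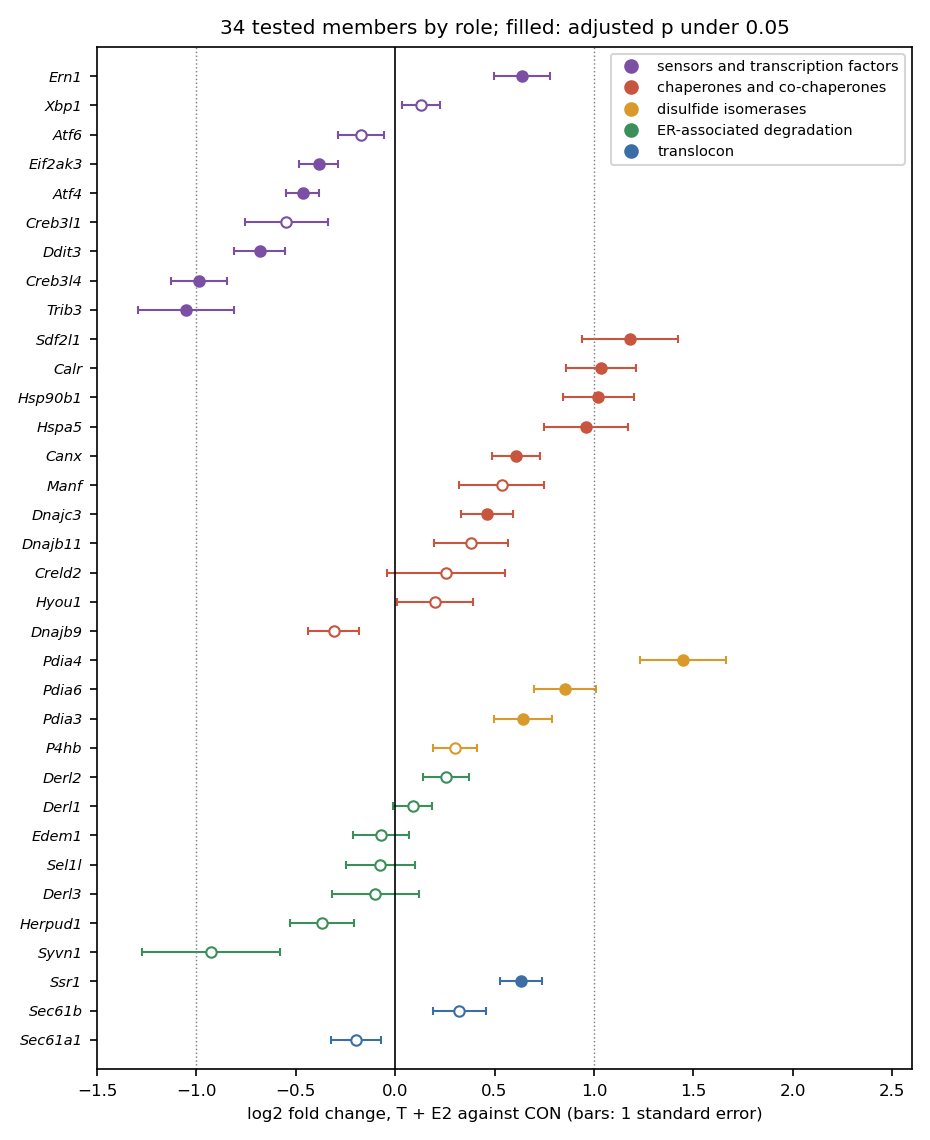
Log2 fold changes (T + E2 against CON, x axis) of the 34 tested genes, grouped and coloured by role, with bars of 1 standard error, filled points for an adjusted p under 0.05 and dotted lines at log2 fold changes of -1 and 1. The 9 filled chaperones and isomerases lie to the right of 0. The 5 filled points left of 0 are in the group of sensors and transcription factors, and the 7 degradation genes are all open.

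The libraries held 14816146 to 16555549 counts on genes, of which 4.03 to 5.94% came from the mitochondrial genome. A count of 3, taken as the limit of detection, was worth 0.183 to 0.208 CPM (counts per gene scaled to a common library size), and this limit covers counting error only. The tissue carried prostate luminal markers, which did not move together. Of the 8 markers 2 rose, 1 when any mouse was left out, and 3 fell, where 10.4% and 9.25% of all tested genes did. The secretory genes Pbsn and Tgm4 fell by 3.29 and 2.91 on the log2 scale, and the luminal keratin gene Krt18 fell by 0.54. Epcam rose by 1.18, and the other luminal keratin gene of the list, Krt8, had -0.15 and did not pass. The 8 stromal markers summed to 4570 to 5194 CPM in the CON group and to 4141 to 4487 CPM in the T + E2 group, and 2 of them fell, Acta2 by 0.50 and Des by 0.38 on the log2 scale, with 0 to 2 that fell when a mouse was left out. One library of each group carried transcripts of the seminal vesicle, which lies against the prostate. The 6 seminal vesicle markers summed to 9939 CPM in CON replicate 2 and to 601 CPM in T+E2 replicate 2, and to between 0.629 and 3.97 CPM in the other mice. Without CON replicate 2, 9 of the genes rose and 5 fell, and without T+E2 replicate 2, 8 rose and 3 fell. In whole tissue, fewer cells of a type and less RNA per cell cannot be told apart.

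Of the 11 chaperones and co-chaperones 6 rose, among them Hspa5, Hsp90b1 and Calr by 1.95- to 2.05-fold. Values are CPM scaled by TMM, given for replicates 1, 2 and 3 of each group. Hspa5 (ENSMUSG00000026864, chr2:34771970-34777547 on GRCm38) encodes BiP, the major ER chaperone that also holds the sensors inactive. It measured 755.5, 1122 and 1397 CPM in the CON mice and 2114, 2347 and 1909 CPM in the T + E2 mice. All T + E2 mice were above all CON mice, and the log2 fold change was 0.96 (SE 0.21, adjusted p = 0.0165), just under the limit for DEGs. Without T+E2 replicate 2 the log2 fold change was 0.88 and the adjusted p 0.063.

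Hsp90b1 (ENSMUSG00000020048, chr10:86690209-86705509), which encodes the ER form of HSP90, measured 1044, 1590 and 1528 CPM in the CON group and 3004, 3052 and 2396 CPM in the T + E2 group. Its group means of 1387 ± 299 and 2817 ± 366 CPM (SD, n = 3 each) differed by a log2 fold change of 1.02 (SE 0.18, adjusted p = 0.0061). The exons of Hsp90b1 overlap those of 1810014B01Rik on the opposite strand over 415 bases, and whether counting used the strand is not given. Calr (ENSMUSG00000003814, chr8:84841850-84846934), which encodes the lectin chaperone calreticulin, measured 1418, 2056 and 2212 CPM in the CON group and 4303, 3876 and 3459 CPM in the T + E2 group. The lowest T + E2 mouse was thus well above the highest CON mouse, and the log2 fold change was 1.03 (SE 0.18, adjusted p = 0.00542). Canx (ENSMUSG00000020368, chr11:50293961-50325673) encodes calnexin, the membrane-bound relative of calreticulin. It went from 458.7, 512.9 and 524.4 CPM to 772.8, 848.7 and 655.7 CPM, a smaller log2 fold change of 0.61 (SE 0.12, adjusted p = 0.0113).

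Sdf2l1 (ENSMUSG00000022769, chr16:17130138-17132383), a partner of BiP and its DnaJ proteins, had the largest log2 fold change of the 11 chaperones, 1.18 (SE 0.24, adjusted p = 0.0126). It measured 145.6, 237.8 and 308.6 CPM in the CON mice and 562.3, 537.6 and 470 CPM in the T + E2 mice. The CON mice were more widely spread than the T + E2 mice, and the groups did not overlap. Dnajc3 (ENSMUSG00000022136, chr14:118937932-118981702), a BiP co-chaperone that also inhibits PERK, measured 693.4, 838.8 and 952.7 CPM against 1175, 1179 and 1064 CPM. Its log2 fold change of 0.46 (SE 0.13) passed narrowly (adjusted p = 0.0433), and the adjusted p was 0.061 to 0.121 when any mouse but CON replicate 3 was left out.

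The remaining 5 chaperones did not pass. Manf, a secreted ER stress factor, had a log2 fold change of 0.54 (adjusted p = 0.119) and Dnajb11, another DnaJ partner of BiP, had 0.38 (adjusted p = 0.189). For both genes the groups did not overlap. Creld2, with a log2 fold change of 0.26 (SE 0.29), and Hyou1, the nucleotide exchange factor of BiP, with 0.20 (SE 0.19), had overlapping groups, and the fold change of Creld2 was -0.05 without CON replicate 1. Dnajb9, a DnaJ protein that represses IRE1, was the one chaperone with a negative estimate. It measured 155.2, 183.5 and 183.1 CPM in the CON group and 159.9, 142.6 and 118.3 CPM in the T + E2 group (log2 fold change -0.31, adjusted p = 0.131).

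**Figure D2:**
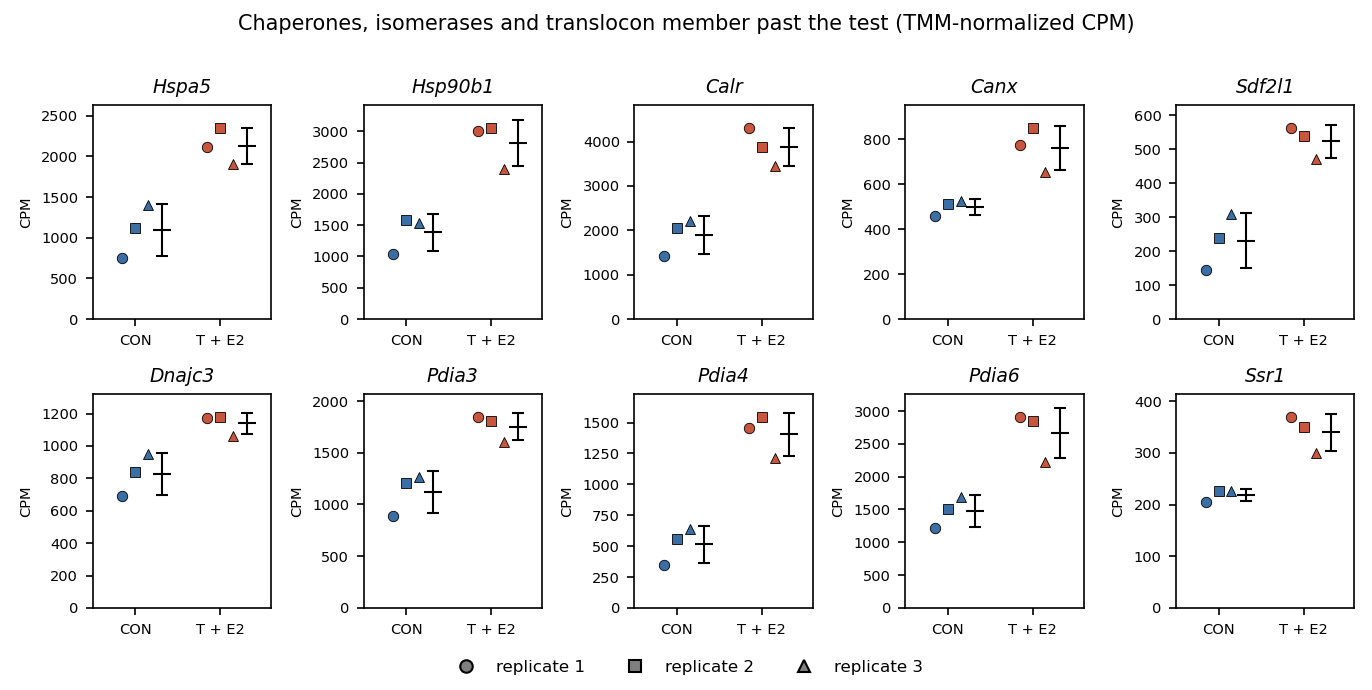
TMM-normalized CPM of the 6 chaperones, 3 disulfide isomerases and 1 translocon gene that rose, with 1 point for each mouse (shape: replicate number) and the mean ± SD (n = 3) beside each group; every y axis starts at 0. In all 10 panels the 3 T + E2 mice are above the 3 CON mice, and CON replicate 1 is the lowest point.

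The disulfide isomerases form and rearrange the disulfide bonds of proteins folding in the ER, and 3 of the 4 rose. Pdia4 (ENSMUSG00000025823, chr6:47796141-47813430) had the largest log2 fold change of all 34 tested genes. It measured 350.4, 555 and 640.2 CPM in the CON mice and 1459, 1545 and 1213 CPM in the T + E2 mice, a log2 fold change of 1.45 (SE 0.22, adjusted p = 0.00308). The lowest T + E2 mouse was far above the highest CON mouse. Pdia6 (ENSMUSG00000020571, chr12:17266545-17284770) measured 1215, 1503 and 1698 CPM against 2909, 2849 and 2229 CPM (log2 fold change 0.86, SE 0.16, adjusted p = 0.00777). Pdia3 (ENSMUSG00000027248, chr2:121413775-121438687), which works with calreticulin and calnexin on glycoproteins, measured 890.2, 1210 and 1267 CPM against 1846, 1806 and 1606 CPM (log2 fold change 0.64, SE 0.15, adjusted p = 0.0196). The groups of both genes were separated, but the adjusted p of Pdia3 was 0.059 without T+E2 replicate 1 and 0.068 without T+E2 replicate 2. P4hb, the founding isomerase of the family, had means of 1792 ± 178 and 2208 ± 156 CPM (SD, n = 3 each) and did not pass (log2 fold change 0.30, adjusted p = 0.0986), although its groups did not overlap.

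Taken by mouse, the 15 chaperones and isomerases summed to 9462, 12905 and 14091 CPM in the CON group and to 22093, 21842 and 18614 CPM in the T + E2 group, and the ratio of the group means was 1.72. CON replicate 1 was the lowest CON mouse in all 15 of these genes and the lowest of the 6 mice in 14, and T+E2 replicate 3 was the lowest of its group in 13. The median ratio of the highest to the lowest mouse was 1.56 within the CON group and 1.20 within the T + E2 group. Without CON replicate 1, Pdia4 alone was an upregulated DEG, with a log2 fold change of 1.23, while the count of genes that rose was 10. Without T+E2 replicate 1, there were 2 upregulated DEGs.

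Antibody-secreting plasma cells are rich in ER. Of 10 tested plasma and B cell markers 2 rose in the T + E2 group, where 10.4% of all tested genes did. The 12 plasma and B cell markers summed to 674.6, 199.2 and 304.7 CPM in the CON group and to 1070, 1140 and 985 CPM in the T + E2 group. The markers that rose were the immunoglobulin gene Igha (log2 fold change 1.98, adjusted p = 0.00494) and the B cell gene Cd79b (2.11, adjusted p = 0.00565). The median log2 fold change of the 10 tested markers was 1.21, and 9 of the estimates were positive. Only the plasma cell regulator Prdm1 had a negative estimate (-0.02), and it did not pass. Without CON replicate 1, 8 of the markers rose, where 1460 of all 15890 tested genes did. The plasma cell marker Tnfrsf17 stayed under 1 CPM in every mouse. Without the immunoglobulin genes Igkc and Igha the sums were 117.2, 31.6 and 42.4 CPM against 95, 175.9 and 143.4 CPM, and the groups overlapped. CON replicate 1 had the highest plasma and B cell sum of the CON group and its lowest chaperone and isomerase sum. In the T + E2 group, T+E2 replicate 3 had the lowest value of both sums, but without Igkc and Igha the lowest marker sum was that of T+E2 replicate 1 (95 CPM). The 6 macrophage markers all had positive estimates, and C1qa (0.63) and C1qb (0.77) rose, with 1 to 3 that rose when a mouse was left out. They summed to 262, 205.2 and 187.1 CPM in the CON group and to 280, 387.1 and 267.7 CPM in the T + E2 group. The part of plasma cells and macrophages in the rise of the folding genes was not tested.

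Many promoters of these genes carry the ER stress response element (ERSE), the sequence through which ATF6 and XBP1, together with NF-Y, act on chaperone genes. Promoter sequences from 250 bases before to 50 bases after the transcription start were taken from RefSeq on GRCm38.p6, which had them for 28 of the 35 genes. ERSE, searched on both strands as CCAAT and CCACG with 9 free bases between them, was found in 39 of 32851 promoters (0.119%). By gene, 37 of 27025 had it (0.137%). Of the 28 genes 9 had it: 6 of the 11 that rose, none of the 5 that fell and 3 of the 12 that did not pass. The set was chosen as genes of ER folding and the unfolded protein response, so that a share above that of all genes is no finding of these data. The sites of the genes that rose are shown so that their fixed ends and free middles can be compared, with the fixed letters in capitals, 5 bases on either side and the strand on which each is read.
Hspa5 (chr2:34772020-34772048, plus strand): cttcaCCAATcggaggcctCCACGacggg
Hsp90b1, distal site (chr10:86705633-86705661, minus strand): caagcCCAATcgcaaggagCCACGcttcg
Hsp90b1, proximal site (chr10:86705528-86705556, plus strand): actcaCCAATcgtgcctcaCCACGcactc
Calr (chr8:84847070-84847098, plus strand): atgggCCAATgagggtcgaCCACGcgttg
Canx (chr11:50325795-50325823, minus strand): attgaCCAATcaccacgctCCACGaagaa
Dnajc3 (chr14:118937822-118937850, plus strand): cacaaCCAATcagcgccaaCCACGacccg
Pdia6 (chr12:17266486-17266514, plus strand): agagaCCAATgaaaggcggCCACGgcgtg

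The sites of Hspa5, Dnajc3 and Pdia6 began 65, 105 and 98 bases before the transcription start on the strand of the gene, and that of Canx 145 bases before it. Distances are from the RefSeq start, which for Hspa5 and Pdia6 differs from the start of the gene coordinates given above. Hsp90b1 held 2 sites, 1 on each strand, and the Calr site lay on the strand opposite to the gene. Genes with the same element that did not pass were Creld2, Derl3 and Syvn1, whose sites are shown as the counterparts of those above.
Creld2 (chr15:88819515-88819543, minus strand): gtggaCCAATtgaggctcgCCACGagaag
Derl3 (chr10:75893237-75893265, minus strand): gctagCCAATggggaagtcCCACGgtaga
Syvn1 (chr19:6046527-6046555, plus strand): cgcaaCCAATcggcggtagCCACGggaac

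The shorter ERSE-II, searched as ATTGG and CCACG with 1 free base between them, was found in 12 promoters (0.0365%), those of Herpud1 and Dnajb11 among them, and neither gene passed the test. They are shown because both hold the letters of ERSE-II without ERSE.
Herpud1 (chr8:94386372-94386392, plus strand): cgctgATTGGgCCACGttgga
Dnajb11 (chr16:22857847-22857867, plus strand): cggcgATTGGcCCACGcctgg
The XBP1 element TGACGTGG, present in 222 promoters (0.676%), and the composite ATF4 and CHOP element TGATGCAAT, present in 63 (0.192%), were found in none of the 28 genes' promoters. The 5 letters CCACG alone, which are part of both ERSE forms, were in 32.8% of all promoters and in 22 of the 28. A match of letters does not show that a factor was bound.

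Among the sensors, the genes for IRE1 and PERK changed in opposite directions and the gene for ATF6 did not pass. Ern1 (ENSMUSG00000020715, chr11:106394650-106487852) encodes the IRE1 kinase and nuclease that splices Xbp1. It measured 282.1, 222.3 and 241.9 CPM in the CON mice and 401.8, 322.1 and 436.4 CPM in the T + E2 mice. The groups did not overlap, with a log2 fold change of 0.64 (SE 0.14, adjusted p = 0.0178), but the adjusted p lay between 0.051 and 0.061 when CON replicate 2, CON replicate 3, T+E2 replicate 1 or T+E2 replicate 3 was left out. Ern2 (ENSMUSG00000030866, chr7:122169893-122186207), the form of IRE1 found in mucous epithelia, had 0, 1 and 0 counts in the CON mice and 2, 3 and 0 counts in the T + E2 mice. Both groups were at or under the limit of 3 counts in every mouse, so that no fold change is given. Of the 5 markers of mucin-secreting epithelium, Tff3 and Muc2 stayed at or near 0, and Spdef and Fcgbp fell by 0.94 and 2.04 on the log2 scale.

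Eif2ak3 (ENSMUSG00000031668, chr6:70844515-70905245), the PERK gene, measured 112, 120 and 115.2 CPM in the CON group and 92, 79.3 and 94.6 CPM in the T + E2 group. The fall was small (log2 fold change -0.38, SE 0.10, adjusted p = 0.0292), and the adjusted p was 0.055 to 0.0995 when any mouse but T+E2 replicate 3 was left out. The exons of Eif2ak3 overlap those of Gm43292 on the opposite strand over 485 bases. Atf6 (ENSMUSG00000026663, chr1:170704674-170867771) measured 298.4, 238.3 and 296.3 CPM against 258.9, 254.1 and 225.7 CPM, with overlapping groups (log2 fold change -0.17, SE 0.12, adjusted p = 0.328). Xbp1 (ENSMUSG00000020484, chr11:5520659-5525893), whose product is made from the RNA that IRE1 splices, measured 290.8, 337.1 and 336.4 CPM against 361.3, 348.3 and 344.7 CPM. Its groups did not overlap, but the difference was small and did not pass (log2 fold change 0.13, SE 0.10, adjusted p = 0.38).

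Atf4, Ddit3 and Trib3, downstream of PERK, fell together with its gene. Atf4 (ENSMUSG00000042406, chr15:80255184-80257540) measured 261.3, 243.2 and 266.1 CPM in the CON mice and 184.4, 183 and 190.3 CPM in the T + E2 mice, a log2 fold change of -0.47 (SE 0.08, adjusted p = 0.00665). The mice of each group lay close together and the groups were well apart. Ddit3 (ENSMUSG00000025408, chr10:127290774-127296288), which encodes CHOP, a factor that promotes cell death under lasting ER stress, measured 16, 20.2 and 17.2 CPM against 11.5, 10.8 and 10.9 CPM (log2 fold change -0.68, SE 0.13, adjusted p = 0.00849). Its exons share 105 bases with another entry of the same name on the same strand, and 68 bases with Mars on the opposite strand. Trib3 (ENSMUSG00000032715, chr2:152337422-152344032), a pseudokinase gene induced by ATF4 and CHOP, had 152, 96 and 109 counts in the CON mice and 57, 50 and 63 counts in the T + E2 mice. It was the least abundant tested gene of the set and had the most negative log2 fold change, -1.05 (SE 0.24, adjusted p = 0.0197). Without T+E2 replicate 2 its log2 fold change was -0.92 and the adjusted p 0.069.

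Creb3l4 and Creb3l1 encode membrane-bound factors that are cleaved in the same manner as ATF6, and Creb3l4 is a gene of prostate epithelium that responds to androgen. Creb3l4 (ENSMUSG00000027938, chr3:90237500-90243512) measured 29.5, 36.7 and 39.7 CPM in the CON group and 17.9, 15.8 and 19.7 CPM in the T + E2 group. Every T + E2 mouse was below every CON mouse, and the log2 fold change of -0.99 (SE 0.14, adjusted p = 0.00248) fell just short of the limit for DEGs. Creb3l1 measured 41.7, 24.8 and 35.2 CPM against 24.7, 18.4 and 26.6 CPM. Its groups overlapped and it did not pass (log2 fold change -0.55, adjusted p = 0.103), although it did without CON replicate 2 (-0.73, adjusted p = 0.033). Summed over all sensors and factors, the CPM of the groups was 1315 ± 57.8 and 1315 ± 69.2 (SD, n = 3 each), with the higher Ern1 beside the lower Atf4.

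**Figure D3:**
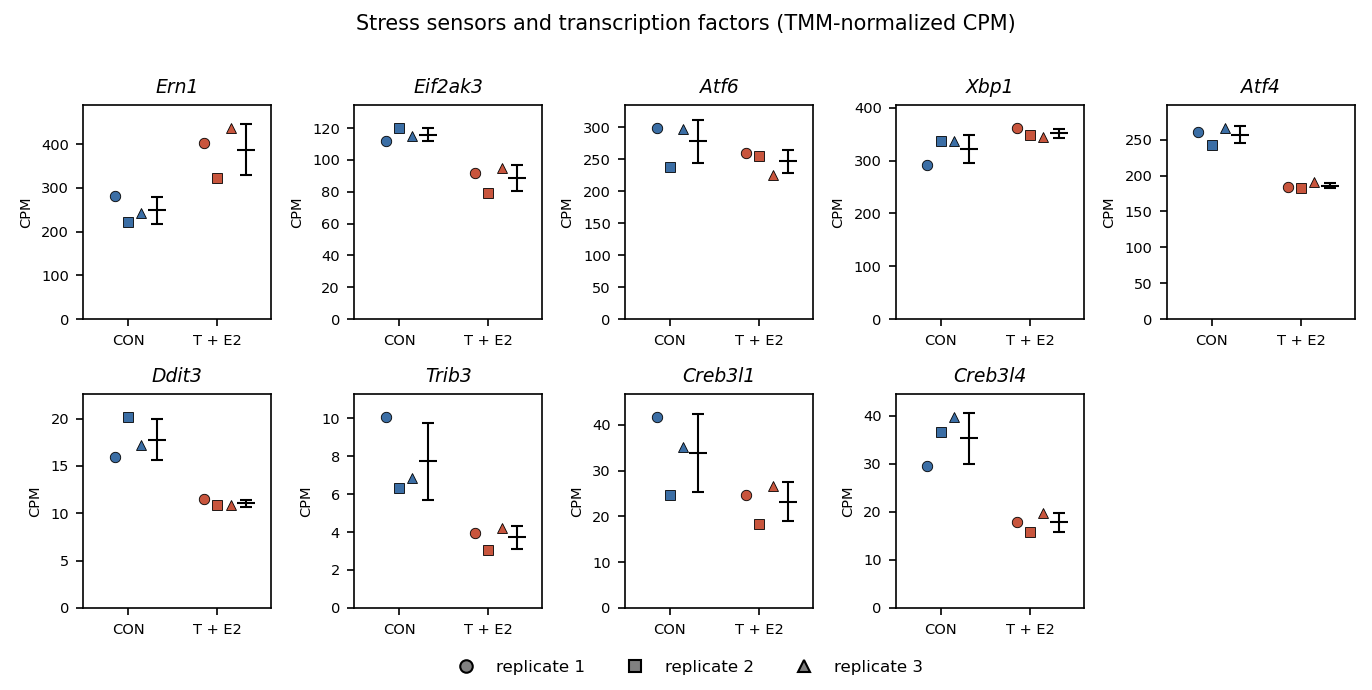
TMM-normalized CPM of the 9 tested stress sensors and transcription factors, with 1 point for each mouse (shape: replicate number) and the mean ± SD (n = 3) beside each group; every y axis starts at 0. Ern1 is higher and Eif2ak3, Atf4, Ddit3, Trib3 and Creb3l4 are lower in all 3 T + E2 mice, while the points of Atf6 and Creb3l1 overlap between the groups.

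The degradation genes, whose products draw misfolded proteins back into the cytosol for the proteasome, had log2 fold changes from -0.93 to 0.25 with a median of -0.07, and in all 7 the groups overlapped. Syvn1, the ubiquitin ligase of the pathway, had the lowest estimate. It measured 173.4, 331.8 and 458.8 CPM in the CON mice and 219.7, 119.3 and 168.2 CPM in the T + E2 mice, so that CON replicate 1 lay among the T + E2 mice (log2 fold change -0.93, SE 0.34, adjusted p = 0.0978). Herpud1, an adaptor of the ligase, measured 507.3, 749.1 and 782.3 CPM against 528.2, 502.3 and 549.1 CPM, again with CON replicate 1 beside the T + E2 mice (log2 fold change -0.37, adjusted p = 0.152). Without CON replicate 1 both genes passed, with log2 fold changes of -1.23 for Syvn1 (adjusted p = 0.020) and -0.54 for Herpud1 (adjusted p = 0.014). Sel1l, the scaffold of the ligase, and Edem1, which selects glycoproteins for degradation, each had a log2 fold change of -0.07. The channel genes Derl1, Derl2 and Derl3 had 0.09, 0.25 and -0.10. The signs of Sel1l, Edem1 and Derl3 depended on which mouse was left out.

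Of the translocon genes, which form the entry into the ER, Ssr1 rose and the subunits of the Sec61 channel did not pass. Ssr1 (ENSMUSG00000021427, chr13:37971401-37994190), a subunit of the translocon-associated protein complex, measured 205.8, 226.5 and 225.7 CPM in the CON mice and 369.5, 350.7 and 300 CPM in the T + E2 mice. The groups were well separated, with a log2 fold change of 0.63 (SE 0.11, adjusted p = 0.00525). Sec61a1, the pore subunit, had a log2 fold change of -0.20 (adjusted p = 0.299), and its exons overlap those of Gm44170 on the opposite strand over 549 bases. Sec61b had 0.32 (adjusted p = 0.131) and passed without CON replicate 3 (0.48, adjusted p = 0.032). Of the 564 transcript bases of Sec61b, 43.1% lie in stretches of at least 100 bases that also occur in a transcript of another gene, so that its counts are uncertain.

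The FPKM of the deposited table, which divides by gene length, allows levels to be set beside each other. In the CON group P4hb had the highest level, 480.1 ± 45.6 FPKM (SD, n = 3), followed by Calr with 450.9 ± 96.6, and these neighbours did not differ beyond their spread. In the T + E2 group Calr was highest with 898.6 ± 72.1 FPKM, and P4hb, at 576 ± 28, was the third after Pdia6 at 586, from which it did not differ beyond the spread. Pdia4 moved from the eighth to the fifth level and Hspa5 from the eleventh to the eighth. The signalling genes had lower means than the genes just named, although Hspa5, at 158.5 ± 44.8 FPKM in the CON group, was within its spread of Atf4. They were not below all chaperones, since Hyou1 had 36.7 FPKM in the CON group and 41.2 FPKM in the T + E2 group. Atf4 went from 150.7 to 106.4 FPKM, Xbp1 from 72.2 to 76.9, Ddit3 from 7.82 to 4.74 and Trib3 from 2.47 to 1.16.

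**Figure D4:**
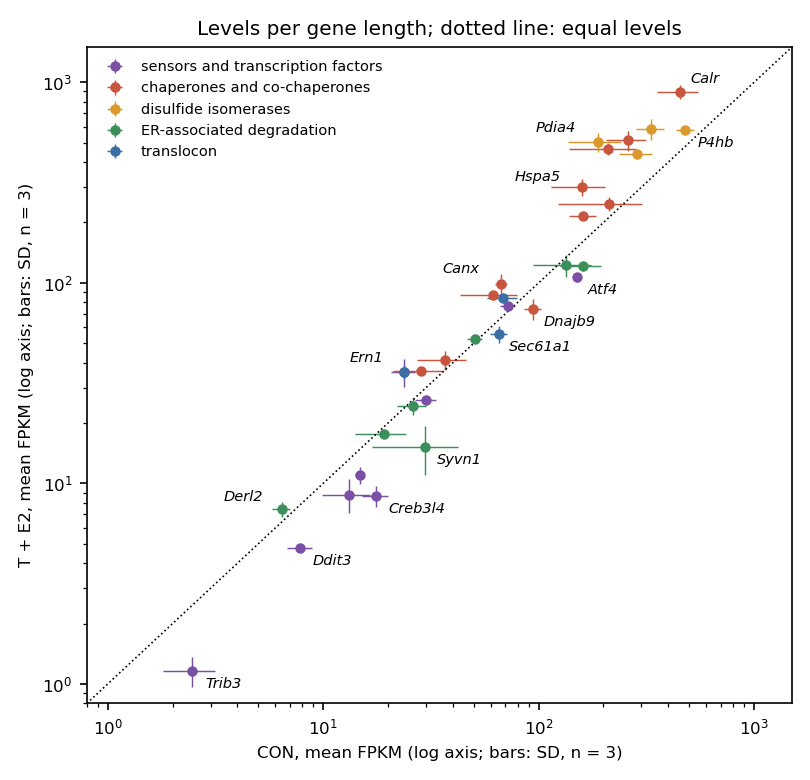
Mean FPKM of the 34 tested genes in the CON group (x axis) and the T + E2 group (y axis), both on log axes, coloured by role, with SD bars (n = 3) and a dotted line of equal levels. Calr (450.9 and 898.6 FPKM) and Pdia4 (189.5 and 504.2 FPKM) lie above the line, Atf4 (150.7 and 106.4 FPKM) lies below it, and Trib3 (2.47 and 1.16 FPKM) is the lowest point, below it.

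Genes of the same pathways outside the set of 35 were taken from 6 lists, which held 158 genes, 154 of them tested. Of these 35 rose and 11 fell, where 10.4% and 9.25% of all tested genes did, with a median log2 fold change of 0.11, and 21 rose when either T+E2 replicate 1 or T+E2 replicate 2 was left out. The number that fell was 5 without CON replicate 3 and 6 without T+E2 replicate 2. Among 23 tested further chaperones and oxidoreductases 7 rose, or 5 to 9 with a mouse left out, and 1 fell. Ero1l, the oxidase that recharges the isomerases, went from 23.2 ± 3.4 to 70.1 ± 11.3 CPM (SD, n = 3 each, 3.03-fold, adjusted p = 0.0004). Pdia2 rose by 1.89 from a low level, and the prolyl isomerase gene Fkbp2 and the secretory epithelial isomerase gene Agr2 each rose by 0.97. Among 30 tested genes of translocation and N-glycosylation 6 rose, or 4 to 7 with a mouse left out, and none fell. Ssr3, of the same complex as Ssr1, rose by 1.32 (adjusted p = 0.000369), and the oligosaccharyltransferase genes Rpn2 and Ddost rose by 0.81 and 0.67, with Ssr4 at 0.69. The adjusted p of Ssr4 was 0.066 to 0.118 when any mouse but T+E2 replicate 3 was left out.

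Of 28 further genes of degradation and glycan trimming 8 rose and none fell, where 10.4% of all tested genes rose. The number that rose was 3 without T+E2 replicate 1, 4 without T+E2 replicate 2 or any CON mouse, and 6 without T+E2 replicate 3. The lectin genes Erlec1 and Os9, which recognise misfolded glycoproteins, rose by 0.96 and 0.80 on the log2 scale, Edem2 by 0.85 and Edem3 by 0.41. The adjusted p of Edem3 was 0.082 to 0.118 without CON replicate 2, CON replicate 3, T+E2 replicate 1 or T+E2 replicate 2. Of 33 genes of ER exit and retrieval 8 rose and none fell, and the number that rose was 3 without T+E2 replicate 1 or T+E2 replicate 2, 4 without CON replicate 1 or CON replicate 3 and 5 without CON replicate 2. Among those that rose were the cargo receptor genes Tmed9 (1.00), Tmed10 (0.89) and Tmed3 (0.61) and the receptor gene Kdelr3 (0.48), whose product returns chaperones to the ER. Without CON replicate 1, T+E2 replicate 1 or T+E2 replicate 2 the adjusted p of Kdelr3 was 0.061 to 0.075. Of 10 tested membrane-bound factors and regulators 2 rose: Bcap31 (0.77) and Mbtps1 (0.69, adjusted p = 0.00199), which encodes the site-1 protease that cleaves ATF6.

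Among the targets of ATF4 and CHOP and the genes of eIF2 phosphorylation, more genes fell than rose. Of 30 tested genes 10 fell and 4 rose, with a median log2 fold change of -0.21, where 9.25% of all tested genes fell and 10.4% rose. The number that fell was 5 without CON replicate 3 or T+E2 replicate 2, 7 without CON replicate 1, T+E2 replicate 1 or T+E2 replicate 3, and 11 without CON replicate 2. Chac1, a glutathione-degrading enzyme gene induced by ATF4 and CHOP, measured 49.9, 13.5 and 13 CPM in the CON mice and 4.57, 3.41 and 4.54 CPM in the T + E2 mice. CON replicate 1 was far above the other CON mice, all of which were above the T + E2 mice (log2 fold change -2.61, SE 0.54, adjusted p = 0.0134). The log2 fold change was -1.67 without CON replicate 1, and the adjusted p was 0.062 without T+E2 replicate 2. Slc7a5, the large neutral amino acid transporter gene, fell from 284.8 ± 38.1 to 108.7 ± 17 CPM (SD, n = 3 each, log2 fold change -1.39, adjusted p = 0.000609). In the other direction Slc7a11, the cystine transporter gene, rose by 1.98 (adjusted p = 0.000841) and Wars, a tryptophanyl-tRNA synthetase gene, by 1.19 (adjusted p = 0.000871).

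**Figure D5:**
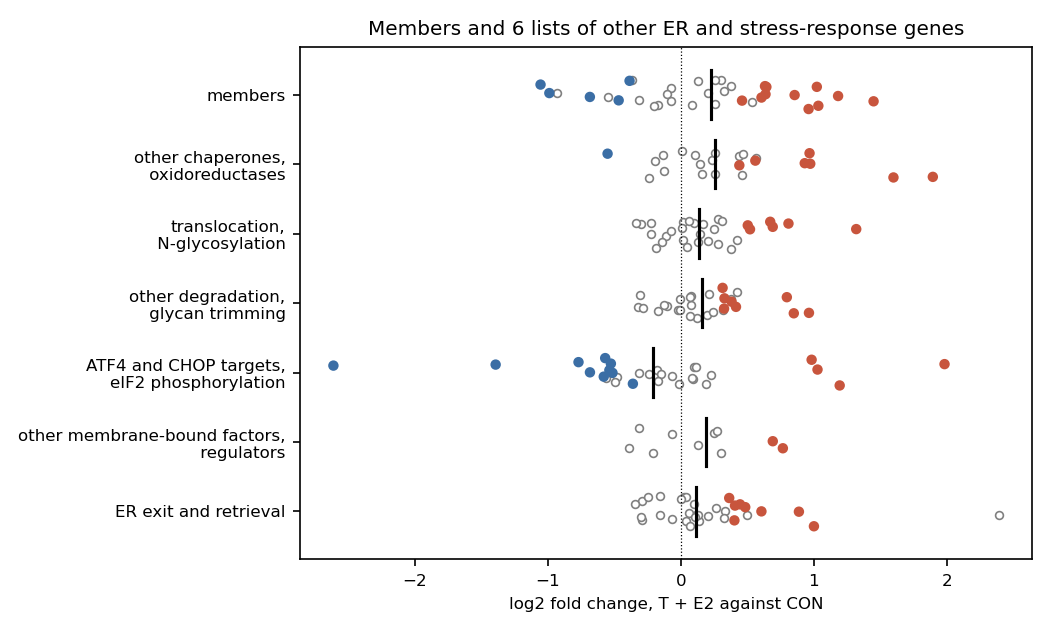
Log2 fold changes (T + E2 against CON, x axis) of the 34 tested genes of the set (top line, labelled members) and of the tested genes of 6 other lists, with 1 point for each gene, red for genes that rose, blue for genes that fell, open for genes that did not pass and a bar at each list's median. The ATF4 and CHOP targets have the only negative median, -0.21, and the lowest point, Chac1 at -2.61.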

How the data were processed

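Prostate RNA of 6 mice (TruSeq libraries, paired-end) was sequenced by the authors. Their processing notes name TopHat, Bowtie2 and HTSeq, and the versions, the genome build, the annotation and the strand setting are not given in the sources used here. The authors deposited raw whole-number counts per gene and FPKM values, which divide the counts by gene length and library depth, in 1 table of 34745 genes. Coordinates are those of the table, in which all 35 genes overlapped their GENCODE M21 (GRCm38) entries. The counts were tested with edgeR 4.0.16 (R 4.3.3). Its function filterByExpr (minimum count 10, minimum total 15) left 15580 genes, TMM scaled the libraries, and the quasi-likelihood test compared T + E2 with CON, with Benjamini-Hochberg adjustment across these genes. A gene was a DEG where its adjusted p was under 0.05 and its log2 fold change over 1 or under -1. The coefficient of biological variation was 18%.

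The members and lists were chosen with earlier results of these data known. Values in every mouse were given for DEGs, for up to 10 further members past the threshold and for Hspa5, Ern1, Ern2, Eif2ak3, Atf6, Atf4, Ddit3 and Xbp1, and up to 4 genes that passed were named from each other list. Values of Dnajb9, Creb3l1, Syvn1 and Herpud1 were added after their values were seen. Alternatives were DESeq2 1.42.0, limma 3.58.1 on log2(FPKM + 0.1) and log2(FPKM + 1), RLE scaling, library totals, no filter, an FPKM of at least 1, a replicate block, each mouse left out in turn and, added after the data were seen, protein-coding genes alone by GENCODE biotype. The procedure was tested on simulated data. Figures used matplotlib 3.10.9 in Python 3.11.15. One marker of the lists is not reported here by itself.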

Additional observations from a re-analysis of the deposited data

How the results depend on the processing

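Of 510 comparisons of single genes under 15 alternatives with the values reported, 478 kept their direction and their side of the threshold, 20 lost the call, 7 gained it and 5 changed sign. Atf4, Ddit3, Creb3l4, Hsp90b1, Sdf2l1, Calr, Canx, Pdia4, Pdia6 and Ssr1 passed under all 15. Scaling by library totals gave 2 upregulated and 2 downregulated DEGs among the genes of the set and 17 other ER genes that fell. With limma, log2(FPKM + 0.1) gave 2 downregulated DEGs and log2(FPKM + 1) gave 0, with 16 and 15 other ER genes that fell under the larger and the smaller pseudocount. The cause was not tested. With each mouse left out, upregulated DEGs numbered 1 to 5, downregulated DEGs 0 to 2, genes of the set that fell 3 to 6, genes that rose 8 to 11, other ER genes that rose 21 to 36 and other ER genes that fell 5 to 11, and the median log2 fold change lay between 0.038 and 0.32. Signs changed for Creld2 (-0.051 to 0.556 over the mice left out, lowest without CON replicate 1), Sel1l (-0.222 to 0.149, highest without CON replicate 2), Derl3 (-0.324 to 0.115, highest without CON replicate 3) and Edem1 (-0.171 to 0.071, highest without CON replicate 3, and 0.0078 without T+E2 replicate 2). DESeq2 called Manf and P4hb as well, 13 genes in all that rose.

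The replicate numbers name different mice, and same-numbered mice did not deviate together (correlations of -0.05, 0.03 and 0.05). With the replicate block, 10 genes of the set rose and 5 fell, 5 were upregulated DEGs, Creb3l1 passed, Eif2ak3 and Dnajc3 did not (adjusted p = 0.071 and 0.083), and 23 other ER genes rose, 4 each in the lists of degradation, of ER exit and of translocation. A planned restriction to protein-coding genes by a biotype in the table was not run, because the table gives no biotype.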
